A study of Mus musculus with 4 samples.

Results

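Polycomb repressive complex 2 (PRC2) is represented here by 6 genes, Suz12, Mtf2, Ezh2, Eed, Jarid2 and Phf19, and every listed m6A peak that carries one of these symbols was taken. N6-methyladenosine (m6A) is a methyl mark on adenosines of RNA. Of the 6 genes, 5 had a peak in at least 1 library, among 9949 genes with a peak in the series. The data are 4 MeRIP-seq libraries of mouse embryonic stem cells of the strain C57BL/6N, made from RNA fragments that an anti-m6A antibody had pulled down. The groups were 2 libraries of Mettl5-/- cells and 2 of wild-type cells, here called knockout 1 and 2 and wild type 1 and 2. Mettl5 encodes a methyltransferase of ribosomal RNA. The labels name no clone, passage or separate culture for any library, and they describe differentiation cultures without assigning a library to them. Whether the 2 libraries of a genotype are biological replicates is therefore unknown, and their spread may be technical.

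PRC2 methylates lysine 27 of histone H3, a mark of silenced developmental genes in stem cells. Ezh2 is its catalytic subunit, Suz12 the scaffold on which the complex is built, and Eed the subunit that binds the finished mark. Jarid2 belongs to the accessory proteins of one form of the complex, and the Polycomb-like proteins Mtf2 and Phf19 to the other form, which they help to bring to CpG islands. Adenosine methylation of an mRNA is known to bear on its stability and translation, and commonly lies near the stop codon and in the 3' untranslated region. A peak in these lists says where RNA fragments were enriched, and a missing peak leaves unknown whether the mark was there.

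The lists held 12699, 10821, 11696 and 11201 peaks in knockout 1, knockout 2, wild type 1 and wild type 2. Read depth is unknown here. Strength is given as the percentile of a peak's p-value within its own list, where 100 is the strongest, and the fold is the authors' own enrichment value per peak. Both describe peaks within a list and are not levels to be compared between libraries. Of 8 stem cell markers, 6 had a peak in all 4 libraries, among them Sox2 and Klf4, while Nanog and Zfp42 had none. Of 8 markers of feeder fibroblasts, 2 (Vim and Fn1) had a peak in all 4 libraries and 6 had none. Of 6 neural markers, 4 had a peak, Nes and Sox1 in all 4 libraries (mean percentiles of 92.6 and 89.6), Pax6 in 2 and Tubb3 in 1. Of 7 markers of primitive endoderm and trophoblast, 3 had a peak, Eomes in all 4 libraries, Cdx2 in 3 and Gata6 in 2.

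The 6 genes split into 3 kinds. Jarid2 was the only one with a peak in all 4 libraries. Suz12, Mtf2, Eed and Phf19 had a peak in 1 library each, the first pair in knockout 1 and the second pair in wild type 2. Ezh2 had none, and no peak of any other gene touched its 64997 bp on chromosome 6. Knockout 1 and wild type 2 each listed 3 of the genes, and knockout 2 and wild type 1 listed Jarid2 alone, so the difference in number lay within each genotype and not between them.

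**Figure D1:**
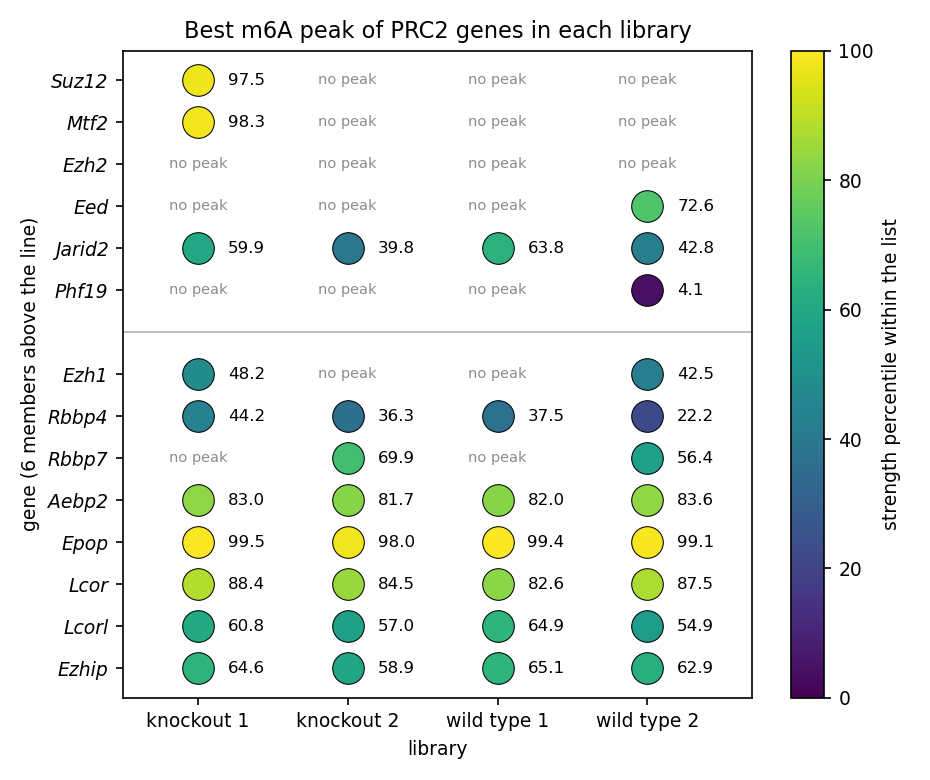
Strength percentile of the best peak of each gene (rows) in each library (columns), with the value beside each point and "no peak" where the list has none. The 6 genes lie above the line and 8 other PRC2 genes below it. Suz12 and Mtf2 have a strong peak in knockout 1 alone, and Epop is near 100 in every library.

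Of the 5 PRC2 genes with a peak, 1 had it in every library, against 57.1% of all genes with a peak. Single-library peaks made up 4 of these 5 genes, against 17.0% of all. By library, 2 of the 5 were in knockout 1 alone (7.92% of all genes with a peak) and none in knockout 2 alone (2.55%), while none was in wild type 1 alone (3.94%) and 2 in wild type 2 alone (2.60%). No member had peaks in both knockout libraries and neither wild-type library, where the share over all genes was 2.27%, and none showed the reverse, where it was 1.56%. A peak in any library was found for 5 of the 6 members, against 37.7% of the protein-coding genes in the RefSeq table. A gene without one, as Ezh2, was the more common case over that table, which holds genes whether or not these cells express them. It was the less common case among the other PRC2 genes, where 8 of 9 had a peak, and PRC1 genes, where 18 of 25 had one. RNA levels were not analysed here. No test was run on these counts, since with 2 against 2 libraries a two-sided exact permutation test cannot give a p below 0.33.

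The promoter end of Eed is shown first because peaks of 2 transcripts on opposite strands met there. The sequence covers the 250 bases before the start of Eed, from RefSeq (GRCm38.p6), chr7:89980977-89981226, minus strand, with matches to the motif GGAC in capitals. GGAC is the core of the sequence in which mRNA m6A is commonly placed. It was searched on both strands, so a capital GTCC is a match on the plus strand, and overlapping matches were counted.
Eed: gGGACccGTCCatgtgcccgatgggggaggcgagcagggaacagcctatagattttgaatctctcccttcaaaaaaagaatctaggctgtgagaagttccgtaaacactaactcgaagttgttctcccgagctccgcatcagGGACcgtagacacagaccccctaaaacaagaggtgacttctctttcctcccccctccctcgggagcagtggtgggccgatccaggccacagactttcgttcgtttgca
The window held 2 matches on the strand of Eed and 1 on the plus strand. The first 50 transcribed bases, not shown, held 0. A match on either strand is found in 87.7% of 32851 such windows of 300 bases in the RefSeq table, so its presence is the usual case. Of the 6 genes, the promoter windows of the other 5 carried no peak in any library.

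Eed itself had 1 peak, in wild type 2. It lay at chr7:89980475-89980983 (mm10) on the minus strand, was classed by the authors as 5' untranslated region, and had a fold of 41.4 and a strength percentile of 72.6. Its outer edge reached 7 bp beyond the RefSeq start of the gene. Every library also had a peak across this start on the plus strand, which the authors assigned to the processed transcript E230029C05Rik. Its folds were 15.0 and 7.36 in knockout 1 and 2, against 34.7 and 18.5 in wild type 1 and 2, and its strength percentiles were 74.6 and 64.6 against 67.5 and 72.1. By percentile the genotypes overlapped. The fold was lower in both knockout libraries, but it is not a level to be compared between libraries. The share of all regions with such an order of folds was not counted, and neither measure was tested.

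All 4 plus-strand peaks began at position 89980723, inside the first part of Eed, and each shared 261 bp with the Eed peak of wild type 2. They ended 16 and 46 bp beyond the start of Eed in knockout 1 and 2, against 195 and 225 bp in wild type 1 and 2. These peaks, which the authors assigned to E230029C05Rik and not to a member, thus covered more of the sequence printed above in wild type than in knockout. The minus-strand GGAC 105 bases before the start of Eed lay within both wild-type peaks and neither knockout peak. Those peaks are on the plus strand, where the site reads GTCC, and the RefSeq transcript of Eed starts after it. The only plus-strand GGAC, 240 bases before that start, and the other minus-strand match were outside all peaks. No test was run on these 2 against 2 peak edges, where an exact permutation test cannot give a p below 0.33. The share of all regions whose edges part the genotypes in this way was not counted. No source used here says whether the libraries keep strand, so reads of Eed and of its neighbour may not be told apart. The RefSeq gene of the name E230029C05Rik starts 48.0 kb away from these peaks, so the assignment rests on the authors' annotation.

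**Figure D2:**
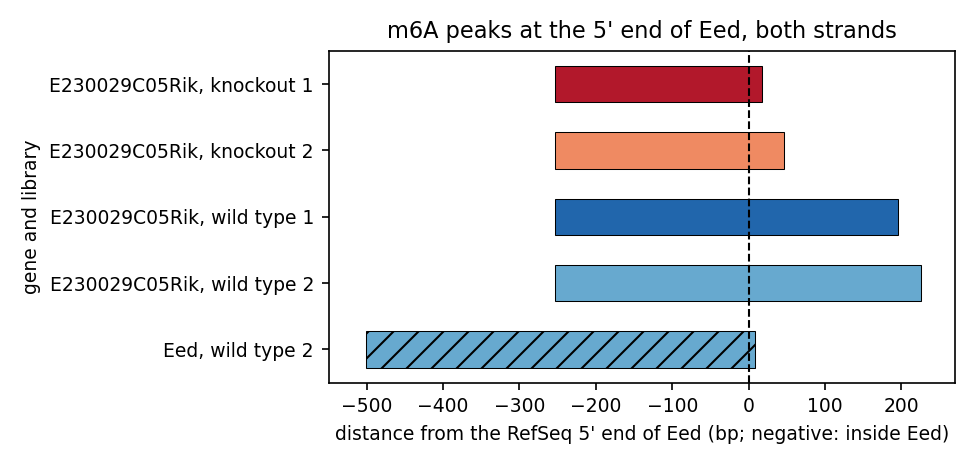
Extent of the peaks at the 5' end of Eed, by gene and library, in bp from the RefSeq start of Eed (dashed line), with the inside of Eed at negative values. Plain bars are plus-strand peaks of E230029C05Rik and the hatched bar is the Eed peak of wild type 2. The knockout peaks end 16 and 46 bp past the line and the wild-type peaks 195 and 225 bp past it. These edges were not tested, and how often edges part the genotypes over all regions was not counted.

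Suz12, the scaffold subunit, had its peak in knockout 1 alone. The peak lay at chr11:80025875-80032565 (mm10, plus strand) and was classed as coding sequence. It was made of 4 exon blocks of 80, 199, 80 and 721 bp, or 1080 bp of exon, and ended 1558 bp before the RefSeq 3' end of the gene. Its fold was 221, its negative log10 p-value 1220, and it ranked at 324 from the top of 12699 peaks (percentile 97.5). No peak of any gene touched Suz12 in knockout 2, wild type 1 or wild type 2.

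Mtf2, a Polycomb-like accessory protein, showed the same form. Its only peak, again in knockout 1 and in coding sequence, spanned chr5:108100847-108107355 (plus strand). It joined 5 blocks of 137, 106, 53, 136 and 768 bp, 1200 bp in all. The fold was 100, the negative log10 p-value 2210 and the rank 223 from the top (percentile 98.3). By fold the same peaks stood lower in the list, at percentiles of 78.3 for Mtf2 and 88.1 for Suz12. Both were long: 1200 and 1080 bp of exon, where the median peak of knockout 1 had 331 bp. In each, the last block was the longest and held most of the exonic length.

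These strong peaks were unusual among genes of a single library. Knockout 1 alone held 788 genes (7.92% of all genes with a peak), and their best peaks had a median percentile of 14.9. Mtf2 and Suz12 stood at positions 4 and 6 of the 788. Of the 10 strongest, 9 had their best peak in coding sequence and 9 in at least 3 blocks. The share of all strong peaks with these traits was not counted. Among the 10 strongest of each other list, coding sequence held 7 in knockout 2, 9 in wild type 1 and 6 in wild type 2, and at least 3 blocks were found in 4, 5 and 6 in the same order. The neighbours in that order, named after their values were seen, were Adnp, Morc3, Utp15, Hnrnpr, Fam169a, Ipo7, Ankle2 and Myc. A best peak at or above the percentile of 95 was found in 9 of these 788 genes and in 8 of 254 genes of knockout 2 alone, against 9 of 392 in wild type 1 alone and 9 of 259 in wild type 2 alone. Such genes thus occurred in every list in like number, and their share was lowest in knockout 1, which alone held the most genes.

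Strong peaks without a counterpart were also counted by block number, with no test. Peaks with 4 or more blocks were mostly strong in every list. Their median percentile was 91.6 and 93.4 in knockout 1 and 2, and 91.5 and 90.4 in wild type 1 and 2. In knockout 1, 91 peaks had 4 or more blocks and a percentile of 95 or more. Of these, 13 (14.3%) lay in a region found in that library alone. The peaks of Suz12 and Mtf2 are themselves among the 13, so this share is not independent of them. Of all 636 peaks with such a percentile, a set that includes the 91, it was 17 (2.67%). In knockout 2 it was 5 of 64 with 4 or more blocks (7.81%) and 33 of all 542 (6.09%). In wild type 1 it was 5 of 62 with 4 or more blocks (8.06%) and 25 of all 586 (4.27%), and in wild type 2 it was 6 of 57 (10.5%) and 13 of 561 (2.32%). Outside knockout 1 the shares with 4 or more blocks rest on 5 or 6 peaks each. Knockout 1 had the longest list and 238 peaks with an adjusted p-value of 0.05 or more, where the other lists had 22 to 25. The part of list length, block number or read depth in the Suz12 and Mtf2 result was not tested.

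**Figure D3:**
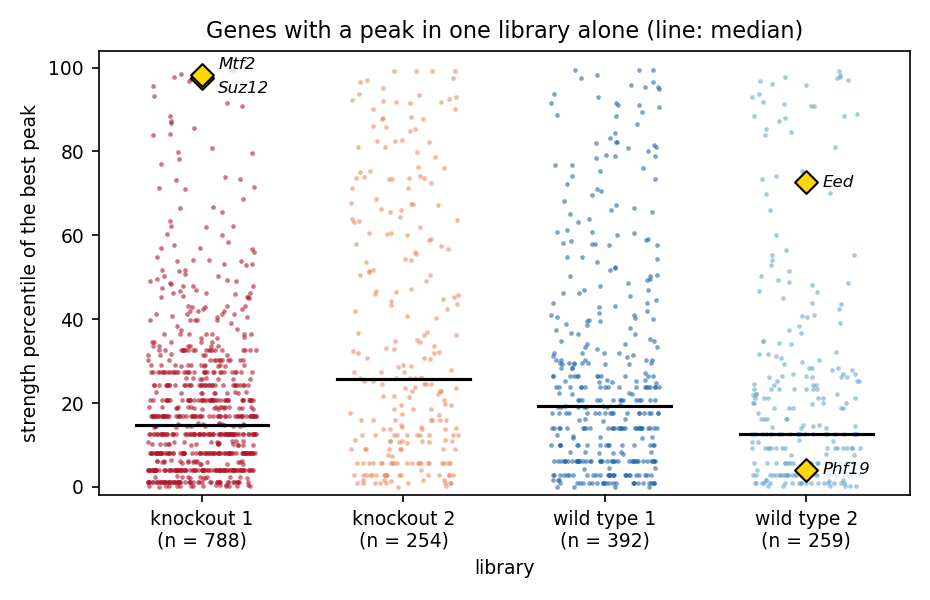
Strength percentile of the best peak (vertical axis) of every gene with a peak in 1 library alone, by library, with the number of genes below each name. Lines are medians, and diamonds mark the 4 PRC2 genes. Mtf2 and Suz12 lie near the top of knockout 1, at 98.3 and 97.5 against a median of 14.9.

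Phf19, the other Polycomb-like protein among the 6, had a weak peak in wild type 2 alone. It lay in the 3' untranslated region at chr2:34894567-34894717 (minus strand), 815 bp before the 3' end of the gene, with a fold of 7.4. Its p-value was 0.011, and it ranked at 10729 of 11201 peaks (percentile 4.08). It stood at position 198 of the 259 genes of wild type 2 alone, and Eed at position 28.

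Jarid2, a protein with a jumonji domain that has no demethylase activity, had 7 peaks in 2 regions, both in the last 1229 bp of the gene. The authors gave all 7 the class exon, with no finer class. The region nearer the end, chr13:44921223-44921583 (plus strand), had a peak in every library. Its fold was 26.0 and 6.6 in knockout 1 and 2, against 62.9 and 11.3 in wild type 1 and 2. The strength percentiles were 59.9 and 39.8, against 63.8 and 42.8. In both measures each genotype had 1 higher and 1 lower library, and the ranges overlapped. The 4 peaks shared a stretch of 241 bp, from position 44921313 to 44921553, and 3 of them ended at the same base, 60 bp before the RefSeq end of the gene. The peak of knockout 2 ended 90 bp before it.

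The best peak of Jarid2 had a mean strength percentile of 49.9 ± 14.2 in knockout and 53.3 ± 14.9 in wild type (SD, n = 2 each). The difference, -3.47, was smaller than the spread within either genotype. Its sign was not stable: it was 7.26 when all peaks of the gene were averaged, 6.56 without knockout 2 and 7.05 without wild type 1.

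The second Jarid2 region, chr13:44920414-44920774, had peaks in knockout 1 and in both wild-type libraries, and none in knockout 2. All 3 peaks began at the same base. The knockout 1 peak was 361 bp long, against 181 bp in each wild-type library. Its fold was 3.94 in knockout 1, against 2.04 and 1.72 in wild type 1 and 2, and its strength percentile 54.5 against 34.2 and 24.1. By fold all 3 were among the lowest of their lists, at percentiles of 3.21 in knockout 1 and 0.530 and 0.254 in wild type 1 and 2. The negative log10 p-values were 9.98 in knockout 1 and 4.3 and 3.45 in wild type 1 and 2. Those of wild type 1 and 2 lay below their list medians of 10.2 and 13.2. That of knockout 1 lay above its median of 7.22.

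**Figure D4:**
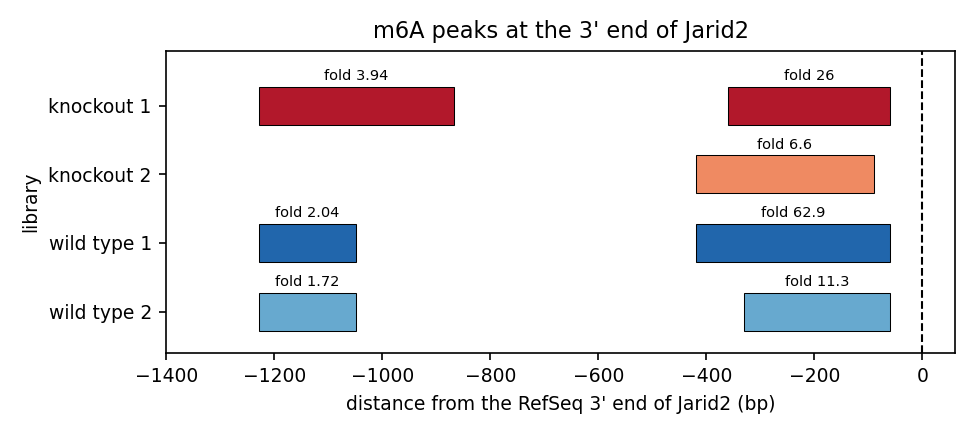
Extent of the 7 Jarid2 peaks by library, in bp from the RefSeq 3' end of the gene (dashed line), with the authors' fold above each bar. The region next to the end has a peak in all 4 libraries. The farther region has none in knockout 2 and folds of 1.72 to 3.94 elsewhere.

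Counted as regions instead of genes, peaks of the members lay in 6 regions. A peak in all 4 libraries was found in 2 of them, where the share over all regions was 42.5%. These were the Jarid2 region next to the gene's end and the Eed region, the second only through the opposite-strand peaks of E230029C05Rik. With peaks joined on the same strand alone, it was 1. A region of both knockout libraries and neither wild-type library was not seen among the 6 (2.51% of all regions), nor the reverse (2.02%).

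Of 9 other subunits and partners of PRC2, 8 had a peak, which 6 of these had in every library (75.0%, against 57.1% of all genes with a peak). The difference from the 6 members was not tested. Epop, a vertebrate accessory protein that links the complex to elongin, had 1 peak over coding sequence with identical ends in each library, chr11:97627389-97629702. Its strength percentiles were 99.5 and 98.0 in knockout 1 and 2, against 99.4 and 99.1 in wild type 1 and 2. Aebp2, which joins the complex together with Jarid2, had a peak in the 3' untranslated region with percentiles of 83.0 and 81.7, against 82.0 and 83.6. Lcor, whose locus also encodes a PRC2 accessory protein, had percentiles of 88.4 and 84.5 in coding sequence, against 82.6 and 87.5. For Aebp2 and Lcor the libraries of the genotypes overlapped. The Epop percentiles of knockout 1, wild type 1 and wild type 2 are the tied top value of their lists, so they have no order.

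Lcorl, the paralogue of Lcor, and Ezhip, an inhibitor of the complex that the lists name AU022751, also had peaks in all 4 libraries, with mean percentiles of 59.4 and 62.9. Of the histone-binding core subunits, Rbbp4 had a weak peak in every library (folds of 2.86 and 3.73 in knockout 1 and 2, against 5.06 and 2.96 in wild type 1 and 2). Rbbp7 had a peak in knockout 2 and wild type 2 alone, with low folds (2.34 and 1.39) and percentiles of 69.9 and 56.4. Ezh1, the second catalytic subunit, had a peak in knockout 1 and wild type 2, with percentiles of 48.2 and 42.5. Phf1, the third Polycomb-like protein, had none.

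Genes that act beside PRC2 were counted for comparison. Of the protein-coding genes in the RefSeq table, 37.7% had a peak in any library. Of 25 genes of PRC1, the complex that ubiquitinates histone H2A, 18 had a peak. In all 4 libraries 12 had one (66.7% of those with a peak, against 57.1% over all genes with a peak). The strongest over the libraries were Cbx7, a chromodomain subunit (mean percentile 93.9), L3mbtl2 (90.5), Kdm2b (83.8) and Auts2 (82.6). Kdm2b, which binds unmethylated CpG islands, had its peak in knockout 1 alone, as Suz12 and Mtf2 did and 7.92% of all genes with a peak. Its fold was 11.4, below the median of 19.2 in that list. Cbx2, another chromodomain subunit, named after its values were seen, had a strong peak in both knockout libraries (folds of 674 and 215). In wild type 2 it had a weak one elsewhere in the gene (8.14), and in wild type 1 none. By gene, Cbx2 thus had a peak in 3 libraries and did not follow the genotype. Over all regions, 2.51% had peaks in both knockout libraries and neither wild-type library.

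Of 8 genes around the H2A deubiquitinase, 6 had a peak and 4 had one in all 4 libraries (66.7%, against 57.1%). Its strongest were the scaffold gene Asxl2 (mean percentile 95.7), Foxk1 (87.6), the catalytic subunit Bap1 (70.1) and Mbd5 (58.6). Asxl1, a paralogue of Asxl2, was listed in both wild-type libraries and neither knockout library, with folds of 31.8 and 31.1. It was named for that pattern, which 1.56% of all genes with a peak showed. Kdm6b, an H3K27 demethylase, had peaks in all 4 libraries with a mean percentile of 98.9, and its paralogue Kdm6a in 3 (54.1). Crebbp and Ep300, which acetylate the same lysine, had peaks in all 4, with mean percentiles of 95.1 and 96.0.

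Of 20 developmental genes known as Polycomb targets in stem cells, 10 had a peak. In all 4 libraries 3 (Sox1, Eomes and Foxa2) had one (30.0% of those with a peak, against 57.1% over all genes). Lhx5 was listed in both knockout libraries alone, with weak peaks (folds of 10.4 and 8.96). It too was named for its pattern, which 2.27% of all genes with a peak showed. The median over genes of the mean percentile was 72.6 for the 5 members with a peak, the value of the single Eed peak, and it rests on 1 library for 4 of the 5 genes. The same median was 63.0 for the other PRC2 genes, 63.3 for PRC1 and 22.2 for the target genes, against 49.6 over all genes with a peak.

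**Figure D5:**
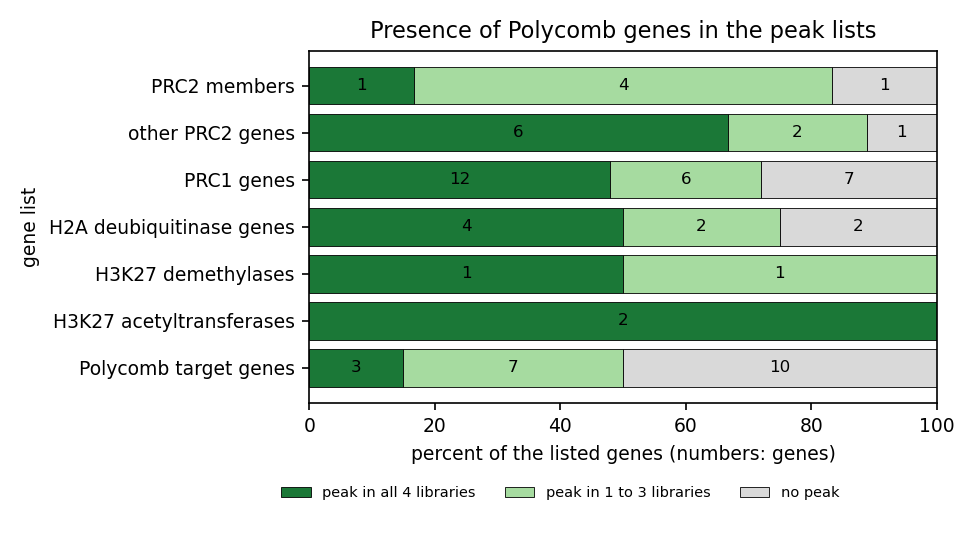
Percent of the genes of each list with a peak in all 4 libraries, in 1 to 3 libraries or in none, with the number of genes in each bar. Of the 6 PRC2 members 1 is in all 4 libraries, and of the 9 other PRC2 genes 6 are. Over all genes with a peak, 57.1% have one in all 4 libraries.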

How the data were processed

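One peak list per library was analysed, with genotypes taken from the labels. Per the submitters' processing notes, HISAT2, HOMER and mm10 were used, without a role for each. No source used here names the peak caller, its settings or the input. The authors deposited for each peak a p-value, its log10 and that of its adjusted value (used as a score for ranking), and a fold enrichment, a ratio to a background that the lists do not name, per the file headers. No depth is given, so no interval was set.

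Peaks off the reference chromosomes (6, 3, 3 and 5 in knockout 1, knockout 2, wild type 1 and wild type 2) were left out. Starts were read as BED positions and are given counted from 1. Strength was the percentile of the log10 p-value within a list, ties sharing the mean rank, and peaks with no finite log10 tied at the top. The best peak stood for a gene. Peaks whose exon blocks shared 1 bp or more on either strand formed 1 region. This joining was run on simulated single-block peaks set far apart. Such peaks cannot show how it treats opposite-strand, multi-block or close peaks. Gene ends, symbols and promoter windows came from RefSeq (GRCm38.p6), which held all 6 members. Epop and Ezhip were also looked up under older symbols. The text names all members, every other PRC2 gene with a peak, and of each other list up to 4 genes with the highest mean percentile and any that followed the genotype. Cbx2 and the neighbours of Suz12 and Mtf2 by strength were named outside this rule, after their values were seen. The members and lists were chosen with earlier results of these data known. Alternatives were an adjusted p-value under 0.05, lists of equal length, the stronger 50% of each list, reciprocal overlap of 50%, whole spans, the same strand, strength by fold, the mean over peaks, and leaving out each library. Python 3.11.15, numpy 2.4.6, pandas 2.3.3 and matplotlib 3.10.9 were used.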

Additional observations from a re-analysis of the deposited data

How the results depend on the processing

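Keeping the stronger 50% of each list left 0 members with a peak in all 4 libraries and 1 such region, since the Jarid2 peaks of knockout 2 and wild type 2 lie below that line. Joining on the same strand left 1 region in all 4 libraries, since the Eed region then loses the peaks of its opposite-strand neighbour. Leaving out each library in turn gave 1 member in all remaining libraries each time, 0 to 2 members in knockout alone (Suz12 and Mtf2 without knockout 2) and 0 to 2 in wild type alone (Eed and Phf19 without wild type 1). For regions it gave 1 to 3 in all remaining libraries, 0 to 2 in knockout alone and 0 to 1 in wild type alone, as a genotype was then judged from 1 list. The Jarid2 difference in strength percentile was -14.0 to 7.05 when a library was left out. With strength by fold it was -14.6, where the SD was 34.5 in knockout and 29.5 in wild type (n = 2 each). With an adjusted p-value under 0.05 or lists of equal length, every count over members and regions was the same. No paired analysis was possible because the titles of the wild-type libraries hold no number to match with the knockout ones. Depth is unknown, so a missing peak cannot be told from one missed for lack of reads.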
